A study of Mus musculus with 6 samples.

Results

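The RLTR10 names are a group of mouse long terminal repeat (LTR) retroelement annotations, followed here in poly(A) RNA-seq of keratinocytes, the epithelial cells of the epidermis. They were taken from the table of read counts per repeat name by spelling alone, as the names that consist of RLTR10 or continue it with anything but a digit. This gave 10 of 1067 names, of which 9 name LTRs (RLTR10, RLTR10A, RLTR10B, RLTR10B2, RLTR10C, RLTR10D, RLTR10D2, RLTR10E and RLTR10F) and 1 names an internal part (RLTR10-int). The family was picked out because several of its names differed between the groups of this experiment. Its fold changes and calls are therefore given as a description of these libraries. They come from the contrast that chose the family, so they are no test of it and nothing is inferred from them.

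Keratinocytes came from mouse epidermis at postnatal day 3 and were cultured for 5 days in medium with 8% chelated serum and 0.05 mM CaCl2. There were 3 Dnmt1Δ/Δep libraries, from mice with K5-Cre and Dnmt1 f/f, in which Cre is driven by the keratin 5 promoter of basal epithelial cells, and 3 control libraries without Cre. Controls were Dnmt1 f/f or Dnmt1 f/+, and which of these a library had is not given in the sources used here. All 6 libraries are labelled female and of a mixed C57BL/6J and 129SV background, and the culture time is given as shorter in a legend of the study. The study's methods describe cultures from 3 mice of each group, and the p-values given below for genes measure the spread between these libraries.

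Many LTR retroelements are former retroviruses in the genome, with an internal part that held the viral genes between a pair of LTRs that carry promoter sequence. Recombination between the LTRs removes the internal part and leaves a solitary LTR, and annotations therefore name LTRs and internal parts apart, with "-int" for the latter. In mouse cells DNA methylation, copied at cell division by Dnmt1, is known to help keep many such elements silent, together with histone methylation set through Trim28 and Setdb1. RLTR10C is known as the LTR of MMERVK10C proviruses, an endogenous retrovirus group whose internal part has a name of its own.

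The libraries held between 53433121 and 115526598 reads on genes and between 4940679 and 28673709 reads on repeat names. Dnmt1, the maintenance DNA methyltransferase, measured 394, 379 and 324 CPM (read counts scaled to a common library size) in control and 49.7, 54.3 and 50.7 CPM in Dnmt1Δ/Δep libraries, so each library fell on the side its label gives. Its log2 fold change was -2.83 (SE 0.11, adjusted p = 8.1e-05, edgeR's quasi-likelihood test). The 8 keratinocyte markers summed to between 31571 and 35055 CPM in control and between 23154 and 24031 CPM in Dnmt1Δ/Δep libraries. Among them Krt5 (log2 fold change -0.50, adjusted p = 0.038) and Krt14 (-0.61, adjusted p = 0.028) passed the adjusted p in edgeR without reaching 1 in size. DESeq2 called 2 lower, the differentiation keratins Krt1 and Krt10, which edgeR did not call (adjusted p = 0.085 and 0.069). Their groups overlapped. Control replicate 1 had 53.2 CPM of Krt1 and 9.63 CPM of Krt10, against 59.2 to 66.1 and 6.30 to 10.6 CPM in Dnmt1Δ/Δep libraries. The other controls had 356 and 530 CPM of Krt1 and 32.1 and 29.7 CPM of Krt10. The 7 leukocyte markers summed to between 0.275 and 1.01 CPM in control and between 2.52 and 4.41 CPM in Dnmt1Δ/Δep libraries, with Csf1r and Itgam called higher and Ptprc, Lyz2, Cd3e and Cd207 too low to test. The 4 endothelial markers ran from 5.29 to 17.1 CPM in control and from 14.5 to 21.7 CPM in Dnmt1Δ/Δep libraries, with Pecam1 and Cdh5 called higher and Tek (log2 fold change 0.58) and Kdr (-0.16), the most abundant in controls, not called. The 5 melanocyte markers ran from 204 to 536 against 646 to 873 CPM, with 1 of them, Tyrp1, called higher in DESeq2 and 0 called in edgeR (3 higher at an unadjusted p under 0.05). The 6 fibroblast markers ran from 12.2 to 28.0 against 11.96 to 58.8 CPM. The part of these cells in the repeat reads was not tested, and in bulk RNA fewer cells of a type and less RNA per cell cannot be told apart.

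The family as a whole took more of the RNA in every Dnmt1Δ/Δep library than in any control. Its 10 names together held 18624, 14281 and 10865 reads in control and 332993, 404200 and 558336 reads in Dnmt1Δ/Δep libraries. Set against gene reads, this was 0.0193, 0.0148 and 0.0203 RLTR10 reads per 100 gene reads in control and 0.550, 0.466 and 0.483 in Dnmt1Δ/Δep libraries. The group means were 0.0182 ± 0.0029 and 0.500 ± 0.044 (SD, n = 3 each), a ratio of 27.5. As a share of all repeat reads the family went from 0.182% ± 0.033 to 1.98% ± 0.056 (SD, n = 3 each), a ratio of 10.9. The smaller ratio has a larger denominator, since all repeat reads went from 10.1 ± 1.8 to 25.2 ± 2.7 per 100 gene reads (SD, n = 3 each).

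Most of the higher level of the family lay with 4 of its 10 names. A name is described as called where its adjusted p was 0.05 or less and its log2 fold change reached 1 in either direction. By this rule RLTR10-int, RLTR10, RLTR10D2 and RLTR10D were called higher, whereas 6 LTR names were not called. Of all 938 names tested, 77 were called higher, which is 8.21%. This share is the background of the count, and nothing is read from the comparison, because the family was chosen on these fold changes. In CPM, 8 of the 10 names had all 3 Dnmt1Δ/Δep libraries above all 3 controls, as had 18.3% of all names, and 1, RLTR10E, had them all below, as had 13.4%. The groups overlapped for RLTR10F. The 6 names without a call summed to 34.6 ± 3.9 reads in control and 57.0 ± 12.1 reads in Dnmt1Δ/Δep libraries, scaled to a common number of gene reads (RPM of gene reads, SD, n = 3 each). The median log2 fold change was 0.74 over the 10 names and 0.48 over the 9 LTR names, beside -0.05 over all names tested. All 10 names passed the filter on low counts, and the lowest value was 115 reads, of RLTR10B in control replicate 3.

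**Figure D1:**
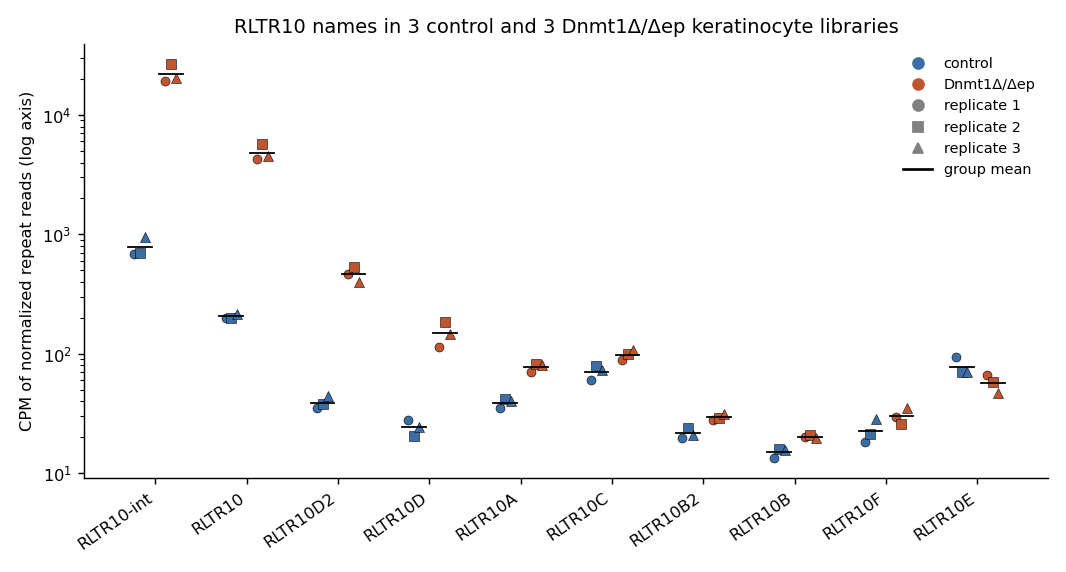
CPM of the 10 RLTR10 names (y axis, log scale) in each of 3 control and 3 Dnmt1Δ/Δep libraries, with a point per library and a line at the group mean, ordered by log2 fold change. The 4 names on the left stand apart between the groups, those from RLTR10A to RLTR10F lie close together, and RLTR10E is the one name with lower CPM in Dnmt1Δ/Δep libraries.

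RLTR10-int, the only internal name, had the most reads of the family in every library. It measured 689, 693 and 951 CPM in control and 19397, 26900 and 20404 CPM in Dnmt1Δ/Δep libraries. Control replicate 3 was the highest control and Dnmt1Δ/Δep replicate 2 the highest of its group, and the lowest Dnmt1Δ/Δep library was far above that control. Its log2 fold change was 4.84 (SE 0.23). Ordered by mean CPM among the 1067 names, RLTR10-int moved from place 121 in control to place 8 in Dnmt1Δ/Δep libraries.

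RLTR10, the LTR that shares its name with the internal part, measured 200, 201 and 216 CPM in control and 4312, 5682 and 4521 CPM in Dnmt1Δ/Δep libraries. The controls lay within a coefficient of variation of 4.54%, against 15.3% among Dnmt1Δ/Δep libraries, where replicate 2 was again the highest. Its log2 fold change was 4.56 (SE 0.16), and it moved from place 282 to place 48. Within libraries of the same replicate number, which were run on the same sequencing lane, the log2 ratio was 4.43, 4.82 and 4.38 for RLTR10 and 4.82, 5.28 and 4.42 for RLTR10-int. Taken across pairs these ranges overlap, but within each pair the internal name had the higher ratio, by 0.38, 0.46 and 0.04 on the log2 scale.

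RLTR10D2 was the next in size of change. It measured 35.03, 37.7 and 44.4 CPM in control and 465, 533 and 396 CPM in Dnmt1Δ/Δep libraries. The groups were far apart, and the replicate with the highest control value had the lowest Dnmt1Δ/Δep value. Its log2 fold change was 3.57 (SE 0.17), below RLTR10 in all 3 pairs, by 0.70, 1.001 and 1.23 on the log2 scale.

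RLTR10D, close to RLTR10D2 by name, measured 27.8, 20.6 and 24.5 CPM in control and 115, 183 and 147 CPM in Dnmt1Δ/Δep libraries. Replicate 1 was the highest control and the lowest Dnmt1Δ/Δep library, and the groups did not overlap. Its log2 fold change was 2.61 (SE 0.22), with log2 ratios of 2.05, 3.16 and 2.58 by pair, the widest spread in the family. The ranges of RLTR10D and RLTR10D2 touch, since the highest ratio of RLTR10D (3.16) reached the lowest of RLTR10D2 (3.15), while RLTR10D2 had the higher ratio in each pair.

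RLTR10A lay at the edge of the call. It measured 34.8, 41.5 and 40.5 CPM in control and 69.9, 82.6 and 80.2 CPM in Dnmt1Δ/Δep libraries. The groups did not overlap, and the log2 ratios of the 3 pairs were 1.004, 0.99 and 0.99. The fitted log2 fold change was 0.99 (SE 0.14), just short of the threshold of 1. It was 0.75 with upper-quartile factors and 0.87 without control replicate 1. With library sizes taken from gene counts it was 1.37, which brought the called names to 5. Against the median of all names, which scaling on gene counts moved to 0.33, the difference was 1.04 in that fit and 1.05 in the fit that gave 0.99.

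RLTR10C, RLTR10B2, RLTR10B and RLTR10F formed a tight set, with log2 fold changes of 0.48 (SE 0.16), 0.45 (SE 0.14), 0.43 (SE 0.13) and 0.42 (SE 0.20), none of them called. RLTR10C, the most abundant of them, measured 60.0, 79.2 and 72.4 CPM in control and 87.9, 99.1 and 108 CPM in Dnmt1Δ/Δep libraries. Its groups did not overlap, but the highest control and the lowest Dnmt1Δ/Δep library were close. RLTR10B2 averaged 21.5 ± 2.2 CPM over the controls and 29.3 ± 1.6 CPM over the Dnmt1Δ/Δep libraries, and RLTR10B had 14.97 ± 1.4 and 20.2 ± 0.53 CPM (SD, n = 3 each). RLTR10F ran from 18.3 to 28.3 CPM in control and from 25.9 to 34.8 CPM in Dnmt1Δ/Δep libraries, so its groups overlapped. Within libraries of the same replicate number its log2 ratios were 0.68, 0.29 and 0.30. The ranges of pair ratios overlapped for every pair of names among these 4, and all lay below the range of RLTR10A, whose fitted value was higher by 0.51 to 0.57.

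RLTR10E was the exception in direction. It measured 93.1, 69.9 and 70.2 CPM in control and 65.9, 57.9 and 46.7 CPM in Dnmt1Δ/Δep libraries, with a log2 fold change of -0.45 (SE 0.19) that was not called. All 3 Dnmt1Δ/Δep libraries lay below the controls in CPM. In RPM of gene reads, however, RLTR10E was at 15.1, 8.62 and 9.62 in control and at 14.7, 8.02 and 8.75 in Dnmt1Δ/Δep libraries, so that the groups overlapped and the pairs differed little. Its log2 fold change was -0.09 with library sizes from gene counts and -0.69 with upper-quartile factors, which put the median of all names at 0.33 and -0.29. Relative to that median RLTR10E was at -0.40 to -0.41 under each scaling.

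**Figure D2:**
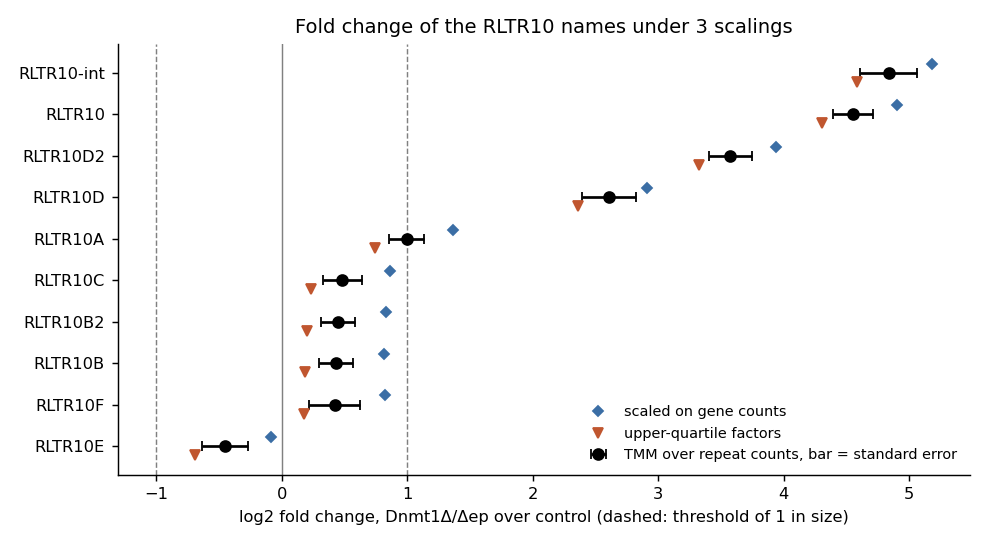
Log2 fold change of each RLTR10 name, Dnmt1Δ/Δep over control (x axis), as fitted with TMM factors over repeat counts (circles, bars show the standard error), with library sizes from gene counts (diamonds) and with upper-quartile factors (triangles). The scalings shift all names together, and only RLTR10B and RLTR10F exchange places, under gene counts. The fitted values put RLTR10-int at 4.84, RLTR10 at 4.56, RLTR10D2 at 3.57, RLTR10D at 2.61, RLTR10A at 0.99 beside the dashed threshold, and RLTR10E below 0.

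The make-up of the family's LTR reads differed between the groups as these fold changes imply. RLTR10 took 39.8%, 39.3% and 40.6% of the reads on the 9 LTR names in control and 83.0%, 84.6% and 84.0% in Dnmt1Δ/Δep libraries. The 6 names that were not called together took 47.7%, 49.3% and 46.5% in control and 5.798%, 4.69% and 5.96% in Dnmt1Δ/Δep libraries. Both shares were tight within groups and far apart between them. RLTR10D2 held its share, with 7.56% ± 0.69 and 8.08% ± 0.81 and overlapping groups, whereas RLTR10D went from 4.72% ± 0.76 to 2.55% ± 0.30 (SD, n = 3 each). RLTR10E, which had the second highest mean share in controls, went from 15.1% ± 3.0 to 0.9998% ± 0.23, while its RPM of gene reads overlapped between the groups.

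Ratios between names need no scaling, since both names are read from the same library. RLTR10C had 3.05, 3.30 and 3.46 reads per RLTR10B2 read in control and 3.13, 3.45 and 3.48 in Dnmt1Δ/Δep libraries, so this ratio overlapped between the groups. RLTR10A reads per RLTR10C read averaged 0.554 ± 0.028 over the controls and 0.789 ± 0.047 over the Dnmt1Δ/Δep libraries (SD, n = 3 each), with no overlap. RLTR10D2 had 1.26, 1.83 and 1.82 reads per RLTR10D read in control and 4.05, 2.91 and 2.70 in Dnmt1Δ/Δep libraries. The groups did not overlap for that pair of names either, but replicate 1 stood apart from the others in both. These ratios come from the contrast that chose the family and were not tested.

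The internal name gained on the LTR names. RLTR10-int had 3.44, 3.45 and 4.395 reads per RLTR10 read in control and 4.50, 4.73 and 4.51 in Dnmt1Δ/Δep libraries, means of 3.76 ± 0.55 and 4.58 ± 0.13 (SD, n = 3 each). The groups did not overlap, but control replicate 3 came close to the Dnmt1Δ/Δep libraries. The ratio of the group means was 1.22, and 1.33 without control replicate 3. Set against all 9 LTR names, RLTR10-int had 1.504 ± 0.24 and 3.84 ± 0.14 reads per LTR read (SD, n = 3 each). These 9 include RLTR10C, known to go with another internal part. They also include the 6 names not called, whose mean share of LTR reads went from 47.8% to 5.48%. The larger gain here thus also reflects the make-up of the LTR reads. It made up 59.8% ± 3.7 of the family's reads over the controls and 79.3% ± 0.60 over the Dnmt1Δ/Δep libraries (SD, n = 3 each). The count table holds no lengths or copy numbers, so these are ratios of reads and not of transcripts. Reads that fit several names were assigned by RepEnrich, and a read counted for one related name can come from a copy of another.

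**Figure D3:**
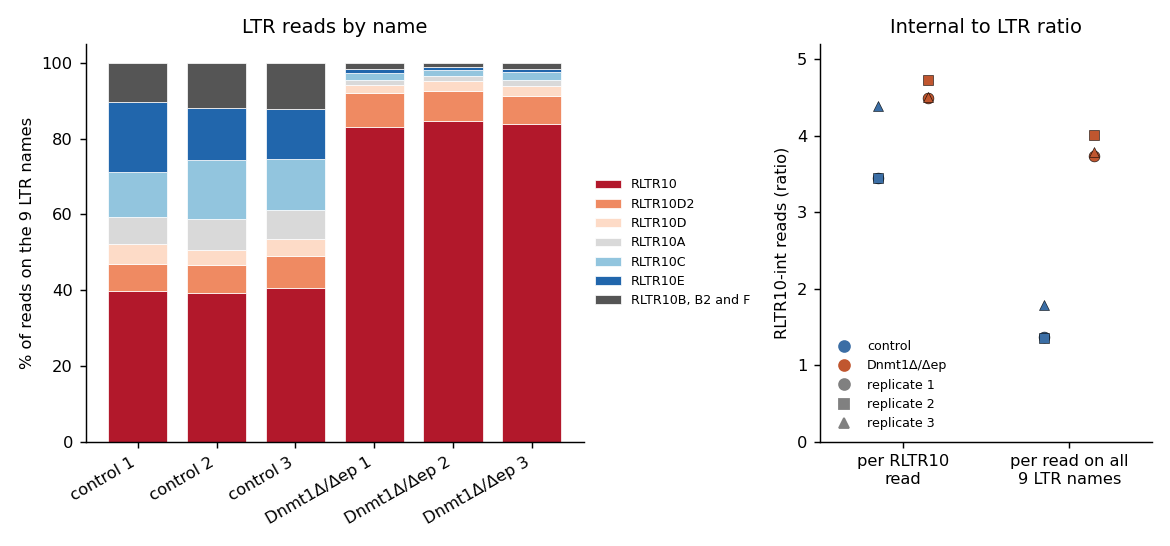
Left, the reads on the 9 RLTR10 LTR names split by name, in percent of their sum (y axis) for each library. Right, RLTR10-int reads per RLTR10 read and per read on all 9 LTR names, a point per library. RLTR10 makes up 39.3% to 40.6% of LTR reads in controls and 83.0% to 84.6% in Dnmt1Δ/Δep libraries, and the internal ratio is higher in each Dnmt1Δ/Δep library than in any control.

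A gap of like size, in either direction, between an internal name and the LTR of the same stem was common in the table. Counting only names spelled as a stem and the same stem with -int, there were 67 stems with both names, of which 52 were tested on both sides. The log2 fold change was higher for the internal name in 26 of the 52, and the median difference was -0.0034. For RLTR10 the difference was 0.28, which put it 23rd among the 52 in size regardless of direction, near the median size of 0.27. Of these 52 stems, 3 were called higher on both sides, RLTR10, IAPLTR3 and RLTR1B. IAPLTR3 had a log2 fold change of 1.58 for the LTR and 5.27 for the internal name, and RLTR1B had 1.22 and 1.83. Pairs spelled in other ways were not counted, and some of them were also called higher on both sides, such as IAPLTR4 (4.44) with IAPLTR4_I (4.95).

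**Figure D4:**
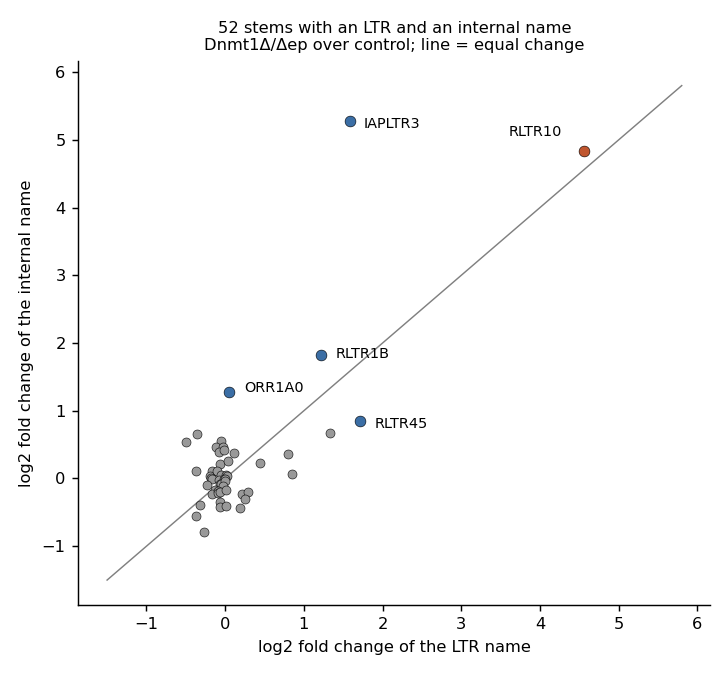
Log2 fold change of the LTR name (x axis) and of the internal name (y axis), Dnmt1Δ/Δep over control, for the 52 stems with a name and its -int name both tested, with a line where they are equal. RLTR10 (4.56 and 4.84) lies near the line at the upper right, IAPLTR3 (1.58 and 5.27) lies far above it, and RLTR45 (1.72 and 0.85) lies furthest below it.

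In the share of names called, RLTR10 lay between the IAP names and the other RLTR names. Of the 24 IAP names, the intracisternal A particles, 21 were called higher with a median log2 fold change of 3.89. Of the 156 tested names that join RLTR to another number, 20 were called higher with a median of 0.06. IAP reads went from 0.194 ± 0.061 to 8.72 ± 0.36 per 100 gene reads (SD, n = 3 each). RLTR10 reads thus went from 9.67 ± 1.83 to 5.72 ± 0.34 per 100 IAP reads (SD, n = 3 each), and the groups did not overlap. Of the rise in repeat reads per gene read, IAP names made up 56.5%, the other RLTR names 11.2%, RLTR10 names 3.19% and MMERVK names 0.502%. These comparisons rest on the same 6 libraries, and no difference between the sets was tested.

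Of the 5 MMERVK names, 3 were called higher. MMERVK10C-int, the internal part known to go with RLTR10C, averaged 363 ± 30 CPM over the controls and 2033 ± 218 CPM over the Dnmt1Δ/Δep libraries (SD, n = 3 each), a log2 fold change of 2.49 (SE 0.13). RLTR10C itself was at 0.48, so that MMERVK10C-int had 5.57, 4.55 and 5.44 reads per RLTR10C read in control and 20.5, 22.6 and 19.0 in Dnmt1Δ/Δep libraries. The groups were far apart, and this internal name changed by more than the LTR name. MMERVK10D3_I-int had a log2 fold change of 3.36 (SE 0.14) and MMERVK10D3_LTR one of 3.84 (SE 0.22), both above RLTR10D at 2.61. MMERVK9C_I-int (0.33, SE 0.15) and MMERVK9E_I-int (0.30, SE 0.23) were not called and lay near the values of RLTR10B, RLTR10B2, RLTR10C and RLTR10F.

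**Figure D5:**
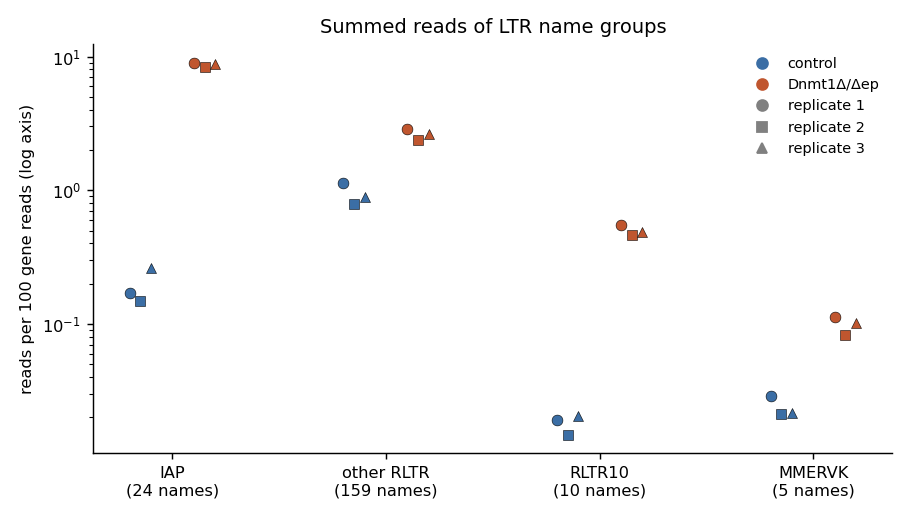
Reads of the IAP, other RLTR, RLTR10 and MMERVK names per 100 gene reads (y axis, log scale), a point per library. RLTR10 and MMERVK names lie close in controls (means of 0.0182 and 0.0239), and in Dnmt1Δ/Δep libraries RLTR10 names reach 0.500 against 0.0997 for MMERVK names.

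Genes tied to the silencing of LTR retroelements were measured in the same libraries and had no part in the choice of the family. The list is mixed, since it also holds Tet1, Tet2 and Tet3, which oxidise 5-methylcytosine rather than set it. Of the 36 genes listed, all tested, 1 was called higher and 1, Dnmt1 itself, was called lower. Over the 16829 genes tested, 6.42% were called in either direction. The median log2 fold change of the list was -0.10. Suv39h2, a histone H3 lysine 9 methyltransferase, measured 19.3, 15.0015 and 14.1 CPM in control and 49.0, 33.9 and 43.2 CPM in Dnmt1Δ/Δep libraries, a log2 fold change of 1.38 (SE 0.18, adjusted p = 0.0046, edgeR). Its groups did not overlap.

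Below a log2 fold change of 1, Zfp809, a zinc finger protein that recognises proviral DNA, had 0.63 (adjusted p = 0.024), Tet3, a 5-methylcytosine oxidase, had -0.39 (adjusted p = 0.039), Suv39h1 had -0.46 (adjusted p = 0.045) and Chaf1b, a chromatin assembly factor subunit, had -0.42 (adjusted p = 0.046, edgeR for all 4). Trim28, the corepressor recruited by such zinc finger proteins, was at 365 ± 29 and 334 ± 42 CPM, and Setdb1, the methyltransferase it brings in, at 72.1 ± 4.5 and 68.1 ± 5.0 CPM (SD, n = 3 each), with adjusted p of 0.62 and 0.71 (edgeR). Dnmt3l, a cofactor of the de novo methyltransferases, was low, at 0.276 ± 0.139 and 0.822 ± 0.110 CPM (SD, n = 3 each), and its log2 fold change of 1.59 did not pass the test (adjusted p = 0.073, edgeR). It did pass with the replicate number as a block (1.66, adjusted p = 0.048) and in DESeq2 (1.56, adjusted p = 0.013). Dnmt3a and Dnmt3b, the de novo methyltransferases, had log2 fold changes of -0.04 each (adjusted p = 0.89 and 0.92, edgeR).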

How the data were processed

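The authors sequenced poly(A) RNA in 6 keratinocyte libraries, 3 of them Dnmt1Δ/Δep and 3 control. Reads were mapped by the authors with bowtie to MGSCv37 (the submitters' processing notes name GRCm38) and given to repeat names with RepEnrich, and reads on genes were counted with STAR and HTSeq. The deposited tables hold counts that were not normalized. RepEnrich can split a read that fits several names into fractions, whereas the deposited repeat counts are whole numbers, and whether they were rounded is not given in the sources used here. The 5 entries of the gene table that name no gene (8.73% to 12.9% of its reads) were left out. A table of the authors' comparisons goes with each count table and holds their fold changes, p-values and, in all, 12 columns of normalized values per library, none of which were used here.

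Counts were tested with edgeR 4.0.16 (quasi-likelihood, TMM factors, filterByExpr with minimum counts of 10 and 15) in R 4.3.3, with Benjamini-Hochberg adjustment over all names or all genes, and a call needed an adjusted p of 0.05 or less with a log2 fold change reaching 1 in either direction. Standard errors were derived from the fold change and the F statistic, as the former's size divided by the root of the latter. CPM are counts over filtered library size times TMM factor. Figures used Python 3.11.15 and matplotlib 3.10.9.

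All 10 RLTR10 names were described, with IAP, MMERVK and other RLTR names, and stems with an LTR and an internal name, for comparison; from the silencing genes, those called or past the adjusted p and the main known factors were named, the latter chosen after their values were seen. Members and lists were chosen with earlier results of these data known. Alternatives were library sizes from gene counts, upper-quartile factors, TMM factors from names other than RLTR, IAP, MMERVK and ETn, DESeq2 1.42.0, no filter, a replicate block and leaving out each library. Replicate numbers share a sequencing lane, and same-numbered libraries deviated together from their group means (correlations of 0.63, 0.48 and 0.46 over repeats). No sequences of the repeats were used here.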

Additional observations from a re-analysis of the deposited data

How the results depend on the processing

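These refits use the libraries that chose the family, so they show how the values move with the processing and do not support the calls. RLTR10-int, RLTR10, RLTR10D2 and RLTR10D passed the thresholds under all 12 alternatives, and none of the 120 values, 10 names under 12 alternatives, changed sign. RLTR10A was called under 5 alternatives, with library sizes from gene counts (1.37), with TMM factors from names other than RLTR, IAP, MMERVK and ETn (1.04), and without Dnmt1Δ/Δep replicate 1, control replicate 2 or control replicate 3 (1.002 to 1.07), which makes 5 called names in place of 4. The count over all repeat names ran from 63 with upper-quartile factors, where 10 names were also called lower, to 94 with gene counts, and from 71 to 77 when 1 library was left out. With the replicate block 83 repeat names and 4 RLTR10 names were called, and Dnmt3l joined the silencing genes called, making 3 in place of 2, as it did in DESeq2 and without control replicate 1. The block changed no other call among the RLTR10 names and the silencing genes, while the called names among the other RLTR names went from 20 to 22. The ratio of RLTR10 reads per gene read between the groups was 10.9 as a share of all repeat reads, 27.3 without the 50 most abundant genes, and 25.2 to 29.3 without 1 library. The ratio of RLTR10-int per RLTR10 read was 2.56 when all 9 LTR names formed the LTR side and 1.17 to 1.33 without 1 library. With 3 libraries a group a two-sided exact permutation test cannot go below p = 0.1. Each RLTR10 name had at least 115 reads in each library, and an effect of depth was not tested. Counts of related names may share reads, and neither copies nor strands can be separated in these tables.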

Other observations

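RLTR10-int, the only internal name of the family, had 2.06, 1.92 and 2.42 reads per MMERVK10C-int read in control and 10.8, 12.03 and 9.91 in Dnmt1Δ/Δep libraries, with no overlap. For MMERVK10D3 the internal name did not gain on its LTR. MMERVK10D3_I-int had 27.7, 15.7 and 19.6 reads per MMERVK10D3_LTR read in control and 13.9, 14.1 and 16.2 in Dnmt1Δ/Δep libraries. The groups overlapped, while within each replicate number the Dnmt1Δ/Δep library had the lower ratio. RLTR9C, the RLTR name with the largest log2 fold change of all (5.01, SE 0.33), had 127, 103 and 62 reads in control and 2337, 4645 and 5536 reads in Dnmt1Δ/Δep libraries. None of these values was tested for a difference between names.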
